A study of Mus musculus with 8 samples.

Results

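Cholesterol and fatty acid synthesis in the renal cortex of aged and young mice was followed through 34 genes, picked by symbol from the 22609 genes of the count tables. They were 8 enzymes of the mevalonate pathway and 10 that form squalene or carry it to cholesterol (below, from squalene to cholesterol). The others were 5 genes of the SREBP control system, the sterol carrier Stard4, 6 genes of fatty acid synthesis and 4 fatty acid desaturases. All 34 had a row in the tables, and 33 had enough counts to be tested among the 13944 genes tested. Hmgcs1, which makes HMG-CoA at the entry to the mevalonate pathway, had 0 counts in each of the 8 libraries. The GENCODE annotation of mm9 used here also gave no single gene entry with a transcript sequence under that symbol. No level or upper limit is therefore drawn from the 0. In all, 4385 genes of the tables were at 0 in every library, and why Hmgcs1 was among them was not tested.

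Cells build cholesterol from acetyl-CoA. The mevalonate pathway makes isoprenoid units, squalene is assembled from them and closed into a ring, and a series of enzymes of the endoplasmic reticulum trims the ring to cholesterol. Fatty acids are built from the same acetyl-CoA by acetyl-CoA carboxylase and fatty acid synthase, and are then lengthened and desaturated. Both branches are driven by the SREBP transcription factors. SCAP escorts these to the Golgi when sterols are scarce, and INSIG proteins hold SCAP in the endoplasmic reticulum when sterols are plentiful.

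RNA of the kidney cortex came from 4 aged (30 months by the labels) and 4 young (5 months) untreated male C57BL6 mice, with one stranded, rRNA-depleted library per mouse. The authors' RNA-Seq methods give a somewhat higher mean age for the aged mice than the labels do. Nothing in the labels describes how these mice were fed or at which hour the tissue was taken. Each library held 14820804 to 19821429 counted read pairs. The cortex label was checked against 10 proximal tubule genes, whose summed level was 14100 CPM in aged mouse 1 and 26200 to 31100 CPM in the other 7 mice. Aged mouse 1 stood apart in this way, so the main results are also given without it. In whole cortex, fewer cells of a type and less RNA per cell cannot be told apart.

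Few of these genes passed the test for age. With edgeR, 2 of the 33 genes had an adjusted p below 0.05, 1 higher and 1 lower in aged mice, where 2.95% of all genes tested did (1.51% higher and 1.44% lower). Me1, which makes NADPH for fatty acid synthesis, was lower in aged mice and also passed the fold threshold of 1.5, which 0.889% of all genes did in that direction and 2.06% in either. Pmvk, a kinase of the mevalonate pathway, rose by a little less than that fold, so that 0 of the 33 genes were called higher at both thresholds, beside 1.17% of all genes. Of the other tests, limma-voom called 1 gene higher and 2 lower, and DESeq2 called 2 higher and 2 lower. Over the 13944 genes tested, limma-voom called 483 and DESeq2 873 in either direction. At an unadjusted p below 0.05 in edgeR, 5 genes were higher (13.4% of all genes). The median log2 fold change of the 33 genes was 0.04, beside 0.03 over all genes tested, and 17 genes lay above and 16 below 0. An unadjusted p below 0.05 was reached by 10 of the 33 genes (30.3%), 5 in each direction, and by 25.5% of all genes. In 7 of the 33 genes (21.2%) the aged and young mice did not overlap, beside 18.9% of all genes. The aged mice lay above the young in 2 of them (8.85% of all genes) and below in 5 (10% of all genes).

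**Figure D1:**
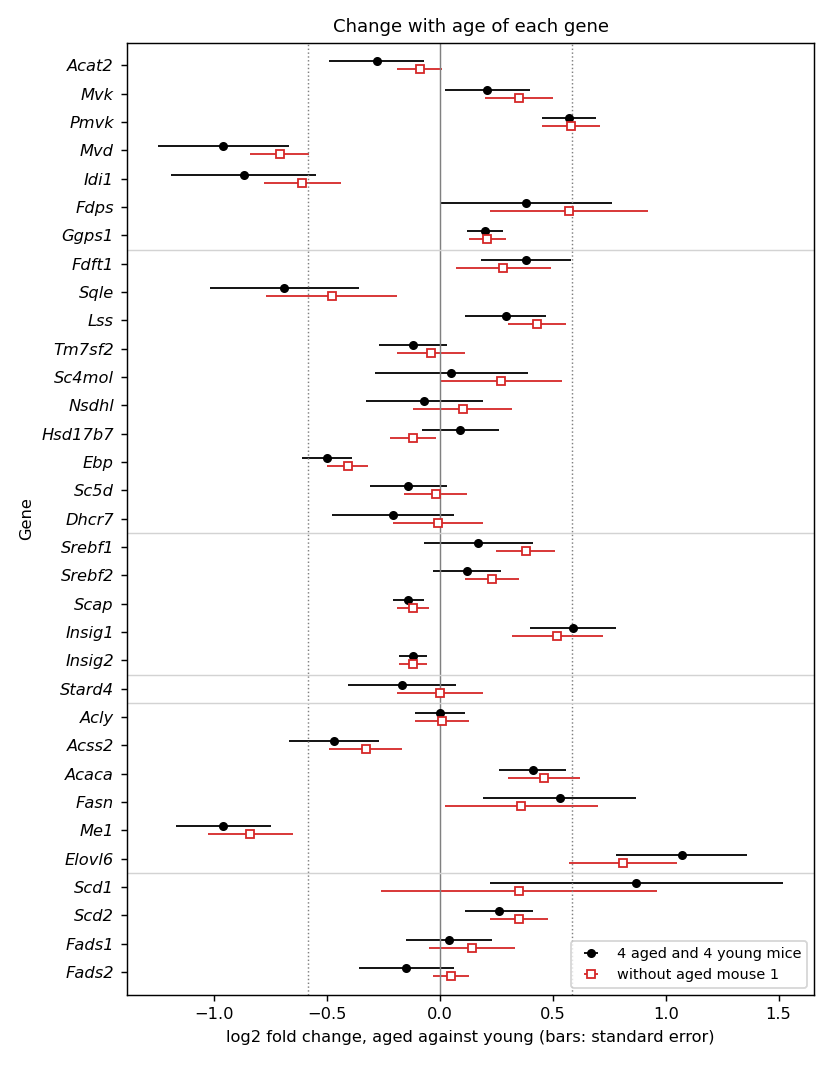
Aged over young as log2 fold change (horizontal axis) for each of the 33 tested genes (vertical axis, ordered by role, grey lines between roles) with all 8 mice (black) and without aged mouse 1 (red), bars giving the standard error (SE). Dotted lines mark a fold of 1.5 in either direction. The fits with all mice run from -0.96 for Me1 and Mvd to 1.07 for Elovl6.

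For some genes the counts were uncertain, since HTSeq-count leaves out pairs with several alignments. Of the 100-nt windows of the transcript, 93.6% for Fdps, 86.0% for Idi1, 84.8% for Acaca, 59.0% for Me1 and 28.2% for Acat2 had a match of 98% identity or more at some other place in mm9. For Scd1 and Scd2 the share was 2.4% and 2.2%, and for the other 26 tested genes it was 0. Tm7sf2 shared 15.3% of its exonic length with another gene on the same strand.

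Upstream sequence is shown for the 8 genes with the smallest p, so that the windows can be read beside their values. The sequences are the 250 bases before the RefSeq start (GRCm38.p6 table), and each had a single exact match on its chromosome in mm9, whose coordinates are given. Pmvk and Me1 had a second RefSeq window each, and the first one listed is shown. CCAAT boxes (CCAAT or its complement), bound by NF-Y, a common partner of SREBP, and E-boxes (CACGTG) stand in capitals. The sterol element TCACNCCAC was also searched on both strands and was in none of the 8.
Pmvk, chr3:89258213-89258462, plus strand: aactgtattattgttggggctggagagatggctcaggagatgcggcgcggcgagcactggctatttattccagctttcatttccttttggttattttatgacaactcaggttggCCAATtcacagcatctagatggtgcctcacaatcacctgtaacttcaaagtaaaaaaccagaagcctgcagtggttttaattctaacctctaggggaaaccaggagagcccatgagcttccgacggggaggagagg
Me1, chr9:86589948-86590197, minus strand: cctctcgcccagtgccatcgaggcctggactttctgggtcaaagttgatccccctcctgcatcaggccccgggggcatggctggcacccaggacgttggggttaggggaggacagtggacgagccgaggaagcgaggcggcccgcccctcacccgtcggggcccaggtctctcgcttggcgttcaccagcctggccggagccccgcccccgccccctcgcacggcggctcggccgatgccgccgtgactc
Ebp, chrX:7770639-7770888, minus strand: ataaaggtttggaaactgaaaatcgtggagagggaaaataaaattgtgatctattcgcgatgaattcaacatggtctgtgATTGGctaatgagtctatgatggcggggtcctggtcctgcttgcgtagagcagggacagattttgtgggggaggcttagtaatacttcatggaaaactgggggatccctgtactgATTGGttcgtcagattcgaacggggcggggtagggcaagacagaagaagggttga
Elovl6, chr3:129235054-129235303, plus strand: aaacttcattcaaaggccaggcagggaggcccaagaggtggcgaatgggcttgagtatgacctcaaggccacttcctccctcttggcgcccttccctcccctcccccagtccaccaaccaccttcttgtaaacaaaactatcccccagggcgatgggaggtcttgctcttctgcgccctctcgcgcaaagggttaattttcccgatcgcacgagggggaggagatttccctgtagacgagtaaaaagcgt
Mvd, chr8:124967323-124967572, minus strand: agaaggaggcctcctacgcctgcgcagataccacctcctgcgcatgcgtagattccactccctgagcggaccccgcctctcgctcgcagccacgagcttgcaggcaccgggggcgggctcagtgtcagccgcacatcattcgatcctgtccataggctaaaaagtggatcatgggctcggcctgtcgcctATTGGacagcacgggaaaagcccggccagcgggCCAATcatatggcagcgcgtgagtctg
Insig1, chr5:28397702-28397951, plus strand: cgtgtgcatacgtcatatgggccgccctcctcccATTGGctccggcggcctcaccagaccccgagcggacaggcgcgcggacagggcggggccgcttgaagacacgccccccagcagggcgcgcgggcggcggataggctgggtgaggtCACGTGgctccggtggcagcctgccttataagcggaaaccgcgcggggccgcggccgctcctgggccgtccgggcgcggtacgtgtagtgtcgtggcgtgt
Acaca, chr11:84008690-84008939, plus strand: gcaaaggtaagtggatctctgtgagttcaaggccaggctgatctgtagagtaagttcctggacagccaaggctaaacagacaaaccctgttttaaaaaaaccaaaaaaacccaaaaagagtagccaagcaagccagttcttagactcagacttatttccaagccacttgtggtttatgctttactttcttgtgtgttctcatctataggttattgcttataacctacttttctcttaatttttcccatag
Idi1, chr13:8884602-8884851, plus strand: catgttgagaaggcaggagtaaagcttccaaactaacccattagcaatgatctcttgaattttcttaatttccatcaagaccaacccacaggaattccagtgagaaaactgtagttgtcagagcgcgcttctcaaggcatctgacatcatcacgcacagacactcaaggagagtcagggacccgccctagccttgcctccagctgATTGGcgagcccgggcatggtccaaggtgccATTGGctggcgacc

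Mvd carried CCAAT boxes that began 60 and 27 bases before the start, Idi1 at 45 and 14 bases and Ebp at 170 and 55 bases before it. Pmvk carried one at 136 bases. Insig1 carried one at 216 bases and an E-box at 101 bases. Neither motif was in the windows shown for Elovl6, Acaca and Me1, and the second window of Me1 held a CCAAT box at 208 bases. The window shown for Acaca lies inside the GENCODE span of the gene (chr11:83943174-84215153), as does the second window of Me1. That shown for Pmvk lies before its GENCODE start at chr3:89263040, and the second window of Pmvk held neither motif. These windows need not be the main promoters of their genes. RefSeq windows were found for 27 of the 34 genes, 36 windows in all. A CCAAT box was in 22 of them (61.1%), beside 33.8% of the 32851 windows of all genes, an E-box in 5 (13.9%, beside 6.02%) and the sterol element in 1 (2.78%, beside 1.05%), that of Hmgcs1. These matches describe the letters only, and some genes had several windows.

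In the mevalonate pathway, Pmvk was higher in aged mice, while the steps after it, Mvd and Idi1, had lower values that missed the threshold. Of the 7 genes tested, 4 had an unadjusted p below 0.05 in edgeR, 2 in each direction (57.1%, beside 25.5% of all genes). Aged and young mice did not overlap in 4 of the 7 (57.1%, beside 18.9%). Values below are in the order of mouse numbers 1 to 4. Mvd, the decarboxylase that forms isopentenyl diphosphate, stood at 9.18, 25.7, 19.5 and 29.5 CPM in aged mice and at 39.5, 40.9, 42.0 and 40.5 CPM in young mice. Every aged mouse lay below every young mouse, and the young mice hardly differed from each other. The log2 fold change, here with its standard error (SE), was -0.96 for Mvd (SE 0.29, edgeR adjusted p = 0.0943). Without aged mouse 1 the change was smaller, at -0.71, but the adjusted p from edgeR was 0.0255. Idi1, which isomerizes isopentenyl diphosphate, stood at 4.42, 16.6, 11.8 and 10.1 CPM in aged mice and at 21.0, 20.5, 16.7 and 19.8 CPM in young mice. The groups were separate by a narrow gap between aged mouse 2 and young mouse 3. Its log2 fold change was -0.87 (SE 0.32, edgeR adjusted p = 0.139).

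Pmvk, which phosphorylates phosphomevalonate and so supplies the substrate of Mvd, went the other way. It stood at 12.2, 12.7, 13.5 and 11.4 CPM in aged mice and 9.92, 8.09, 7.41 and 8.21 CPM in young mice, with every aged mouse above every young mouse. That gave a log2 fold change of 0.57 (SE 0.12, edgeR adjusted p = 0.0483), a fold of 1.48. Over fits that each drop 1 mouse, the adjusted p from edgeR ranged from 0.0329 to 0.144 and stayed below 0.05 only without aged mouse 1 or aged mouse 4. Ggps1, which makes the geranylgeranyl groups used to anchor proteins in membranes, was also separate, at 33.8 to 40.5 CPM in aged and 30.8 to 32.4 CPM in young mice. Its difference was small, with a log2 fold change of 0.20 (SE 0.08, edgeR adjusted p = 0.157).

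Of the remaining mevalonate genes the groups overlapped. Acat2, the cytosolic thiolase that joins the first acetyl-CoA units, ranged from 30.1 to 69.4 CPM in aged mice and from 58.2 to 68.2 CPM in young mice. Mvk, mevalonate kinase, ranged from 7.86 to 15.6 CPM in aged and from 9.21 to 10.4 CPM in young mice. Fdps, which condenses isoprenoid units to farnesyl diphosphate, ranged from 4.13 to 13.2 CPM in aged and from 3.78 to 7.25 CPM in young mice. Their log2 fold changes were -0.28, 0.21 and 0.38, none with an adjusted p below 0.05 in edgeR.

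**Figure D2:**
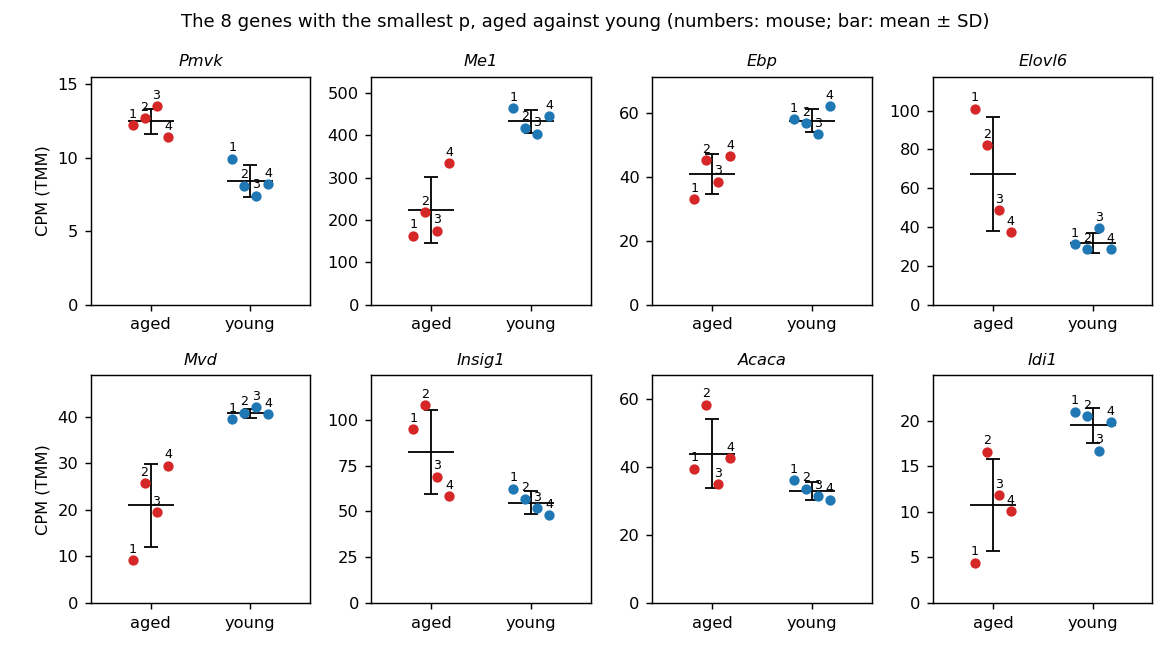
CPM after TMM normalization (vertical axis) in each aged (red) and young (blue) mouse for the 8 genes with the smallest p, with the mouse number above each point and the mean with SD as bars. Me1, Mvd, Idi1 and Ebp have all aged mice below the young, Pmvk has all of them above, and Elovl6 and Insig1 are highest in aged mice 1 and 2.

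From squalene to cholesterol, none of the 10 genes passed the edgeR test, where 2.95% of all genes did. Of the 10, 1 (Ebp) had an unadjusted p below 0.05, beside 25.5% of all genes. That 1 gene had an adjusted p below 0.05 in DESeq2 and in limma-voom, beside 12.1% and 6.44% of all genes. Ebp, the sterol isomerase, came closest, at 33.0, 45.1, 38.4 and 46.3 CPM in aged mice and 57.9, 56.8, 53.3 and 62.0 CPM in young mice. All aged mice were lower than all young mice. For Ebp the log2 fold change was -0.50 (SE 0.11, edgeR adjusted p = 0.0529). Without aged mouse 1 the adjusted p was 0.0354 from edgeR, at a log2 fold change of -0.41. Sqle, the squalene epoxidase and a rate-limiting step, stood at 32.0, 106, 44.6 and 54.3 CPM in aged mice and at 126, 85.9, 78.5 and 90.7 CPM in young mice. Of the aged mice 3 lay below all young mice, and aged mouse 2 lay among them. For Sqle it was -0.69 (SE 0.33, edgeR adjusted p = 0.231).

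Sc4mol (now called Msmo1), which removes methyl groups from the sterol ring, ranged from 20.5 CPM in aged mouse 1 to 68.0 CPM in aged mouse 2, and from 28.8 to 50.9 CPM in young mice. Nsdhl, which acts with it, ranged from 31.6 to 84.4 CPM over the same aged mice and from 46.5 to 62.8 CPM in young mice. Dhcr7, the last reductase of one route to cholesterol, ranged from 11.7 CPM in aged mouse 1 to 34 CPM in aged mouse 2, and from 20.6 to 28.9 CPM in young mice. In all 3 genes the young mice lay inside the range of the aged mice. Their log2 fold changes were 0.05, -0.07 and -0.21. Fdft1, which makes squalene, and Lss, which closes the ring, had log2 fold changes of 0.38 and 0.29 with edgeR adjusted p of 0.262 and 0.314. Tm7sf2 and Sc5d, a sterol reductase and a desaturase, had log2 fold changes of -0.12 and -0.14. Hsd17b7, a sterol ketoreductase, had one of 0.09 and was the only gene of this step that was highest in aged mouse 1, at 62.9 CPM beside 36.6 to 45.6 CPM in the other 7 mice.

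The genes that control the pathway differed less than some of the enzymes. Srebf2, which codes for the SREBP of cholesterol synthesis, stood at 102, 174, 133 and 125 CPM in aged mice and at 123, 129, 129 and 111 CPM in young mice. Srebf1, the gene of the SREBP of fatty acid synthesis, stood at 36.7, 92.8, 79.8 and 63.3 CPM in aged and 67.2, 56.6, 62.8 and 54.7 CPM in young mice. In both genes aged mouse 1 was lowest and aged mouse 2 highest of all 8. The log2 fold changes were 0.12 (SE 0.15) for Srebf2 and 0.17 (SE 0.24) for Srebf1, and their adjusted p from edgeR were 0.645 and 0.671. Scap varied little, from 97.8 to 106 CPM in aged and 105 to 120 CPM in young mice.

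The INSIG genes differed from each other in direction, though neither passed the test. Insig1, itself a target of SREBP, stood at 95.2, 108, 69.1 and 58.4 CPM in aged mice and at 62.5, 57.0, 51.8 and 48.0 CPM in young mice. Only aged mouse 4 lay within reach of the young mice. Insig1 had a log2 fold change of 0.59 (SE 0.19, edgeR adjusted p = 0.104), and one of 0.52 without aged mouse 1. Without aged mice 1 and 2, its 2 highest, left out after seeing the data, the log2 fold change was 0.22. Insig2, which is less bound to sterol supply, stood between 43.9 and 45.3 CPM in aged and between 47.9 and 49.4 CPM in young mice, the tightest of the 33 genes. Every aged mouse was lower, by a log2 fold change of -0.12 (SE 0.06, edgeR adjusted p = 0.231). Within a library, Insig1 had 2.14, 2.39, 1.54 and 1.33 counts per Insig2 count in the aged mice, and 1.27, 1.15, 1.08 and 0.999 among the young. Means were 1.85 ± 0.499 for aged and 1.13 ± 0.116 for young mice (SD, n = 4 each), a log2 difference of 0.68, with every aged mouse above every young mouse. The two-sided exact permutation test gave p = 0.0286, the smallest that 4 against 4 mice allow, and 0.114 after adjustment over the 4 ratios tested, so the difference did not pass the correction.

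The other 3 ratios overlapped between the groups. Per Srebf2 count, Srebf1 had 0.5 ± 0.101 counts in aged and 0.491 ± 0.045 counts in young mice (SD, n = 4 each; exact permutation test, adjusted p = 0.971). Per Fads1 count, Fads2 had 1.19 ± 0.326 counts in aged and 1.33 ± 0.139 counts in young mice (SD, n = 4 each; exact permutation test, adjusted p = 0.743). Scd2 per Scd1 was spread widely, from 0.142 to 2.04 in aged and from 0.356 to 1.05 in young mice (exact permutation test, adjusted p = 0.952).

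Stard4, which carries cholesterol between membranes and is induced by SREBP, stood at 40.9, 102, 53.2 and 71.9 CPM in aged and 82.7, 73.4, 76.5 and 69.3 CPM in young mice. Its aged mice spanned the young ones, as for Srebf2, and its log2 fold change was -0.17 (SE 0.24, edgeR adjusted p = 0.675).

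In fatty acid synthesis, the NADPH-producing malic enzyme Me1 was the gene that changed past both thresholds. Of the 6 genes, 4 had an unadjusted p below 0.05 in edgeR, 2 in each direction (66.7%, beside 25.5% of all genes). Aged and young mice did not overlap in 1 of the 6 (16.7%, beside 18.9%). Me1 stood at 163, 218, 175 and 334 CPM in aged mice and 464, 418, 404 and 445 CPM in young mice, with means of 223 ± 78.1 and 433 ± 26.9 CPM (SD, n = 4 each). Every aged mouse lay below every young mouse, with aged mouse 4 nearest to them. It had a log2 fold change of -0.96 (SE 0.21, edgeR adjusted p = 0.0495), and the young mice were 1.94-fold higher by the fit. Me1 spans chr9:86474970-86589947 in mm9 (minus strand), and its counts are among the uncertain ones. Over fits that each drop 1 mouse, the adjusted p from edgeR ranged from 0.00288 without aged mouse 4 to 0.134, and it was below 0.05 only without aged mouse 1 or aged mouse 4. Its log2 fold change stayed between -1.22 and -0.84.

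Acss2, which activates acetate to acetyl-CoA, stood at 150, 255, 176 and 292 CPM in aged and 293, 296, 283 and 336 CPM in young mice. Only aged mouse 4 reached the young range, and the log2 fold change was -0.47 (SE 0.20, edgeR adjusted p = 0.181). Acly, which makes acetyl-CoA from citrate, had the same mean of 295 CPM in both groups, with an SD of 42.3 in aged and 21.3 in young mice (n = 4 each).

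Elovl6, which lengthens palmitate to stearate, leaned the other way. It stood at 101, 82.1, 48.9 and 37.2 CPM in aged and at 31.0, 28.7, 39.5 and 28.6 CPM in young mice, so that aged mouse 4 lay below young mouse 3. Elovl6 had a log2 fold change of 1.07 (SE 0.29), the highest of the 33 genes, with an adjusted p of 0.0752 from edgeR. Without aged mouse 1 it was 0.81 (edgeR adjusted p = 0.0831), and without aged mice 1 and 2 it was 0.43 (edgeR adjusted p = 0.143). Those 2 mice, left out after seeing the data, were its highest, so a smaller change had to follow. Fasn, the fatty acid synthase, stood at 344, 391, 119 and 169 CPM in aged and at 197, 172, 159 and 179 CPM in young mice. Aged mice 1 and 2 were above all young mice, and aged mouse 3 was below them. Its log2 fold change was 0.53 (SE 0.34, edgeR adjusted p = 0.337), and 0.36 without aged mouse 1. Without aged mice 1 and 2, again the 2 highest, it was -0.29. Acaca, the acetyl-CoA carboxylase, ranged from 34.9 to 58.3 CPM in aged and from 30.4 to 36.1 CPM in young mice, with a log2 fold change of 0.41 (SE 0.15, edgeR adjusted p = 0.137).

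None of the 4 desaturases passed the edgeR test, 0 had an unadjusted p below 0.05, and 0 passed the adjusted p in DESeq2 and limma-voom. Over all genes the shares were 2.95%, 25.5%, 12.1% and 6.44%. Scd1, the stearoyl-CoA desaturase that makes oleate, was the most variable of the 33 genes, at 993, 687, 99.5 and 306 CPM in aged and 487, 127, 195 and 331 CPM in young mice. Aged mice 1 and 2 were the highest and aged mouse 3 the lowest of all 8. The highest aged mouse stood 9.98-fold above the lowest one, and the young mice spanned 3.83-fold. For Scd1 the log2 fold change was 0.87 (SE 0.65, edgeR adjusted p = 0.410), and 0.35 without aged mouse 1. Without aged mice 1 and 2, its 2 highest, left out after seeing the data, it was -0.49. Scd2, its relative, varied far less, from 141 to 203 CPM in aged and from 122 to 173 CPM in young mice, with a log2 fold change of 0.26. Fads1 and Fads2, which desaturate long polyunsaturated fatty acids, were each lowest in aged mouse 1 and highest in aged mouse 2. Fads1 ranged from 83.7 to 157 CPM and Fads2 from 71.4 to 158 CPM in aged mice, beside 94.1 to 116 CPM and 131 to 142 CPM in young mice.

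**Figure D3:**
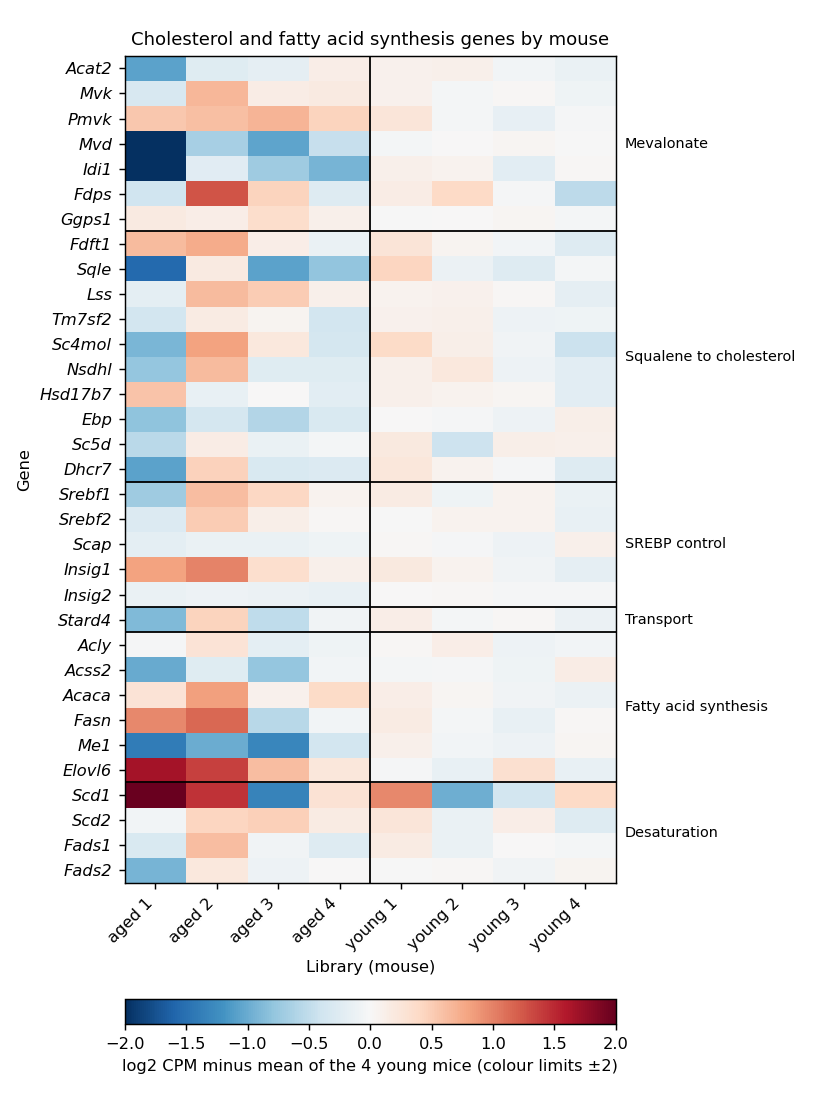
Log2 CPM of each tested gene (rows, grouped by role) in each mouse (columns), as the difference from the mean of the 4 young mice (red higher, blue lower, colour limits at 2 in either direction). Aged mouse 1 is blue in most sterol genes but red in Elovl6, Fasn and Scd1, and aged mouse 2 is red in most genes.

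The aged mice were more spread than the young mice. The SD of log2 CPM was larger among aged than among young mice in 30 of the 33 genes (90.9%), beside 83.4% of all genes tested, and its median over the 33 genes was 0.42 in aged and 0.13 in young mice, beside 0.25 and 0.12 over all genes. The exceptions were Pmvk, Scap and Insig2. Aged mouse 1 was the lowest of the 8 mice in 20 of the 33 genes (60.6%) and in 29.3% of all genes. Among the 10 genes from squalene to cholesterol it was lowest in 8. Taken per mouse, the median log2 difference of the 33 genes from the young mean was -0.31, 0.44, -0.10 and -0.07 for the aged and between -0.09 and 0.11 for the young animals. Over the 10 squalene to cholesterol genes it was -0.65, 0.32, -0.06 and -0.26 in the aged mice, and over the 6 fatty acid synthesis genes 0.12, 0.55, -0.38 and -0.05.

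Without aged mouse 1, edgeR gave an adjusted p below 0.05 for 4 of the 33 genes, Mvd, Ebp and Me1 lower and Pmvk higher, where 5.83% of all genes did. Without aged mice 1 and 2 it did so for 3 genes, Mvd, Idi1 and Sqle, all lower, beside 3.75% of all genes. The log2 fold changes in that fit were -0.73, -0.83 and -0.94, and that of Me1 was -0.77 with an adjusted p of 0.0912 in edgeR. That fit was chosen after seeing the data, and it drops aged mouse 2, the highest aged mouse in Idi1 and Sqle. With only aged mouse 1 left out, the adjusted p from edgeR was 0.067 for Idi1 and 0.323 for Sqle. Without aged mouse 4, 6 of the 33 genes had an adjusted p below 0.05 in edgeR, beside 7.83% of all genes. DESeq2 on all mice called 6 of the 33 genes at the adjusted p, namely Ebp, Me1, Mvd, Pmvk, Insig1 and Elovl6, beside 12.1% of all genes, and limma-voom called 4, Ebp, Me1, Mvd and Pmvk, beside 6.44%.

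Adipocyte markers had their highest summed level in the mice that were highest in several lipogenic genes. Of 9 adipocyte markers 8 could be tested, and all 8 had log2 fold changes above 0, with a median of 2.70. None had an adjusted p below 0.05 in edgeR, where 2.95% of all genes did. An unadjusted p below 0.05 was reached by 7, all higher, beside 13.4% of all genes in that direction. At an adjusted p below 0.05 DESeq2 gave 3 and limma-voom 0, beside 12.1% and 6.44% of all genes. Adipoq stood at 37.6, 10, 1.55 and 6.1 CPM in aged and at 0.863, 1.48, 0.204 and 2.60 CPM in young mice. The summed level of the 8 genes was 682, 186, 70.3 and 136 CPM in aged and 57.1 to 108 CPM in young mice. Plin1 had 0 counts in young mouse 3, and Lep, which could not be tested, had at most 19 counts in any mouse. Aged mice 1 and 2 were highest in 6 of the 8 markers and in Scd1, Fasn and Elovl6. In Lipe and Plin4 aged mouse 4, at 38.8 and 14.8 CPM, stood above aged mouse 2, at 28.8 and 11.4 CPM, and in Lipe young mice 2 and 4 did so too, at 29.0 and 33.3 CPM. By contrast, young mouse 1 had 487 CPM of Scd1 with 69.0 CPM over the markers. The part of adipocytes in these values was not tested.

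**Figure D4:**
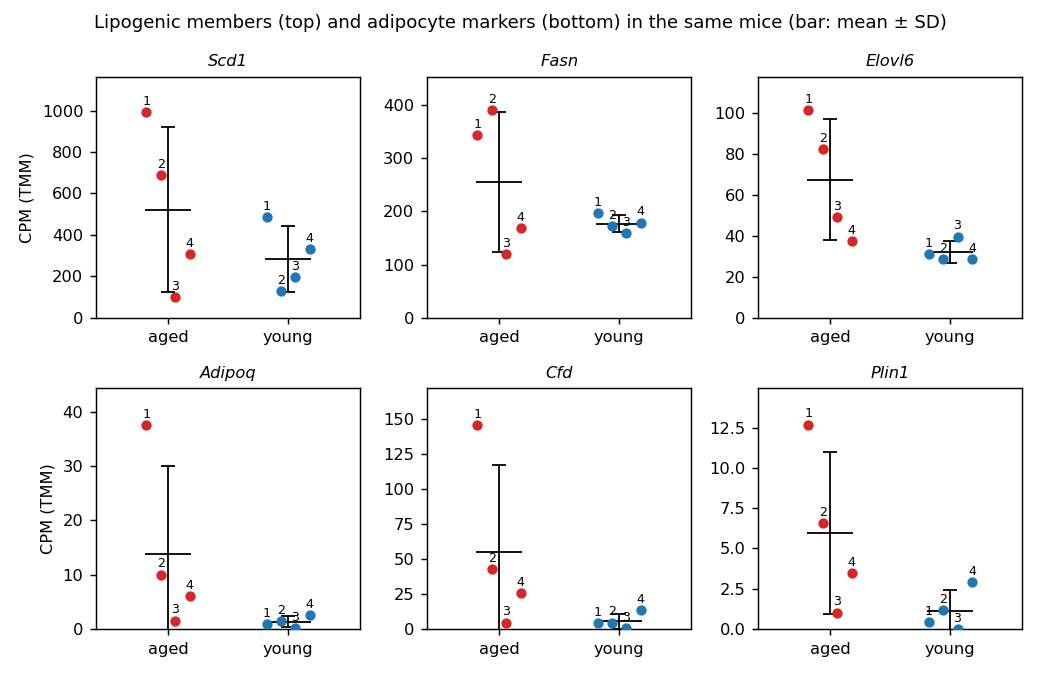
CPM (vertical axis, each panel on its own scale from 0) of Scd1, Fasn and Elovl6 (top) and of the adipocyte markers Adipoq, Cfd and Plin1 (bottom) in each aged (red) and young (blue) mouse, with the mouse number above each point and mean and SD as bars cut at 0. Aged mice 1 and 2 are the 2 highest of the 8 in every panel.

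Other features of the tissue also moved with age or with aged mouse 1. Pdk4 and Angptl4, which are raised by fasting, stood at 892 and 298 CPM in aged mouse 1 and at no more than 60.8 and 72.2 CPM in the other 7 mice. Of 11 tested genes of fatty acid oxidation and fasting, 10 had log2 fold changes above 0. In that list 1 gene, Cyp4a14, passed the adjusted p, beside 2.95% of all genes. Without aged mouse 1 the median of that list went from 0.95 to 0.03. Of 14 clock genes, 3 rose and 2 fell at the adjusted p, beside 1.51% and 1.44% of all genes. The clock gene Arntl stood at 33.7 ± 7.69 CPM for aged and 5.08 ± 0.559 CPM for young animals, and the clock output gene Dbp at 16.8 ± 8.72 and 105 ± 5.59 CPM (SD, n = 4 each). Sterol and fatty acid synthesis is known to follow feeding and the clock. The part of either in the differences above was not tested.

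The wider pathway was described with 4 further lists. Of 14 tested genes of sterol and isoprenoid synthesis outside the module, 13 had a log2 fold change below 0, with a median of -0.43, and 8 had an unadjusted p below 0.05, all lower (12.1% of all genes in that direction). Only Dhdds, which starts the lipid carrier of glycosylation, passed the adjusted p (log2 fold change -0.55, SE 0.10, edgeR adjusted p = 0.0323). Of all genes tested, 2.95% passed. In this list too aged mouse 1 was lowest in 11 of the 14 genes. Cyp51, the sterol demethylase that follows Lss, stood at 32.1, 126, 64.0 and 82.4 CPM in aged and 265, 123, 173 and 268 CPM in young mice, with a log2 fold change of -1.44 (SE 0.40, edgeR adjusted p = 0.0786). Young mouse 2 lay within the range of the aged mice.

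Of 15 tested genes of sterol efflux, storage and the LXR system, 3 passed the adjusted p, where 2.95% of all genes tested did. Apoe, the apolipoprotein that carries cholesterol between cells, rose in aged mice to 403 ± 187 CPM, against 98.7 ± 12.3 CPM in the young (SD, n = 4 each), with a log2 fold change of 2.03 (SE 0.32, edgeR adjusted p = 0.0267). Its level was 636 CPM in aged mouse 1, 410 and 389 CPM in aged mice 2 and 3 and 179 CPM in aged mouse 4. Abca1, the pump that exports cholesterol, rose from 78.8 ± 18.3 to 150 ± 17.3 CPM (SD, n = 4 each), a log2 fold change of 0.93 (SE 0.16, edgeR adjusted p = 0.0327). Nr1h3, which codes for the sterol receptor LXR alpha, fell by 0.51 on the log2 scale (SE 0.10, edgeR adjusted p = 0.0385). In all 3 genes the groups did not overlap, as in 4 of the 15 genes of this list (26.7%) and 18.9% of all genes.

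Of 18 other lipogenic genes tested, Thrsp rose and Elovl1 fell at the adjusted p, beside 2.95% of all genes in either direction. Thrsp, a lipogenic factor abundant in fat, stood at 18.1, 18.5, 4.06 and 9.32 CPM in aged and 1.43 to 3.88 CPM in young mice, a log2 fold change of 2.20 (SE 0.49, edgeR adjusted p = 0.0498). It was highest in aged mice 1 and 2, whose summed adipocyte markers were highest too. Elovl1, which lengthens very long saturated chains, stood at 54.6 ± 9.37 CPM in aged and 87.5 ± 4.80 CPM in young mice (SD, n = 4 each), a log2 fold change of -0.68 (SE 0.12, edgeR adjusted p = 0.0340). Of 11 genes of glyceride synthesis and storage, Mogat1, a monoacylglycerol acyltransferase, fell by 1.13 on the log2 scale (SE 0.22, edgeR adjusted p = 0.0390). No other of the 11 passed, beside 2.95% of all genes.

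Levels of different genes were compared as CPM per kilobase of exon. In young mice Me1 was highest of the 33 genes, at 121 CPM per kilobase, followed by Fads2 at 90.6, Scd1 at 58.9 and Acly at 55.9 CPM per kilobase. In aged mice the order was Scd1 at 108, Fads2 at 81.9, Me1 at 62.2 and Acly at 55.8 CPM per kilobase. The place of Scd1 rests on aged mice 1 and 2, and its spread covers that of its neighbors. The lowest values in young mice were those of Lss and Tm7sf2, at 2.00 and 2.91 CPM per kilobase. These places depend on the length used, which joins all GENCODE exons of a gene, 10.787 kb for Lss and 1.508 kb for Fads2. Before division by length, Lss stood at 21.6 CPM in young mice, beside 21.4 CPM for Fdft1 and 9.80 CPM for Mvk. The counts of Me1 are among the uncertain ones.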

How the data were processed

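RNA-Seq counts of the kidney cortex of 4 aged and 4 young mice were analysed, one library per mouse, grouped by the sample titles. The authors aligned paired ends to mm9 with TopHat2 and used HTSeq-count with reverse strand to assign pairs to RefSeq genes, and they deposited raw counts per gene. Versions of both are not given in the sources used here. Rows that name no gene were left out: pairs on no gene made up 20.0% to 29.9%, pairs aligned to several places 34.3% to 39.1% and ambiguous pairs at most 0.346% of a library. Each library's own table was used, and the joint table was not. No 2 libraries were duplicates (smallest chi-square per gene 8.18).

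The counts were tested in R 4.3.3 with edgeR 4.0.16 (quasi-likelihood, TMM, filterByExpr with a minimum count of 10), with Benjamini-Hochberg adjustment over 13944 genes and thresholds of 0.05 and a fold of 1.5. Log2 CPM used a prior count of 2. The other tests were limma-voom (limma 3.58.1) with quality weights, DESeq2 1.42.0, other scalings and filters, the replicate number as a block and each mouse left out in turn. Leaving out aged mice 1 and 2 was chosen after seeing the data. The fits were tested on simulated counts. Ratios of counts were compared by two-sided exact permutation over 70 orders. Labels do not say that the mice were unrelated, so the p-values rest on taking the mice as independent.

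Exon lengths came from GENCODE for NCBIM37 (mm9) and not from the RefSeq models that were counted. Copies were sought with BLAST 2.17.0 from Python 3.11.15. The genes and lists were chosen with earlier results of these data known. All 34 genes are named (some other genes of the lists are not reported here), together with the genes of the other pathway lists with an adjusted p below 0.05, Cyp51, and the genes used to check tissue, fat, clock and fasting state. The 10 thick limb and collecting duct, 10 podocyte and endothelial and 9 immune genes had median log2 fold changes of -0.15, 0.05 and 0.49. Of these lists 0, 0 and 2 genes passed the adjusted p, beside 2.95% of all genes. The median log2 fold change of the proximal tubule genes was -0.11.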

Additional observations from a re-analysis of the deposited data

How the results depend on the processing

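Counts of called genes moved with the fit. With upper-quartile scaling 1 gene was called higher and 0 lower past both thresholds, and 1 had an adjusted p below 0.05. Scaling by library size alone gave 1 higher and shifted the median over all genes from 0.03 to 0.14 (log2). With no filter on low counts 0 were lower and 0 passed the adjusted p, and with 10 counts in every library 0 were lower and 1 passed. DESeq2 gave 2 higher, 2 lower and 6 at the adjusted p, and limma-voom 1, 2 and 4. Without aged mice 1 and 2 there were 3 lower. Over all genes tested (13107 to 18224), these fits called 297, 488, 256, 226, 873, 483 and 302 at both thresholds, in that order. At the adjusted p alone they called 428, 776, 328, 335, 1685, 898 and 530. The main edgeR fit called 287 and 411 of 13944 genes. Leaving out single mice, the higher genes numbered 0 to 3, the lower 0 to 2 and those past the adjusted p 0 to 6, while over all genes 8 (without young mouse 1) to 733 (without aged mouse 4) were called. The mouse numbers were not taken as pairs, since nothing in the labels says that same-numbered mice are related. Same-numbered mice deviated together with correlations of 0.21, 0.04, 0.20 and -0.03. Aged mice 1, 2 and 3 were each closest to the young mouse of the same number, and aged mouse 4 to young mouse 2. Whether the numbers mark pairs was not tested. With the number as a block 0 genes were lower and 0 passed the adjusted p, beside 0.947% of all genes for the latter, and the Insig1 to Insig2 ratio, whose log2 difference of 0.68 a balanced block cannot change, had p = 0.125 in the exact sign-flip test, the smallest that 4 pairs allow.

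With 1 mouse left out, that ratio differed by 0.54 to 0.83 (exact permutation test, p = 0.0571, the smallest then possible), Scd2 to Scd1 by -1.06 to 0.22 and Srebf1 to Srebf2 by -0.09 to 0.15. Over 17 alternatives to the fit, 13 of the 33 genes changed sign in at least 1, all of them genes without a call. The log2 fold change of Acly became 0.04 with upper-quartile scaling, 0.11 with library size, 0.00 with 10 counts in every library and 0.01 with limma-voom. That of Nsdhl became 0.03 with library size and 0.01 with limma-voom, and that of Hsd17b7 -0.06 with limma-voom. With the block, Sc4mol was at -0.05 and Fads1 at -0.01. Without aged mice 1 and 2, Fdft1 was at -0.01, Sc4mol at -0.07, Hsd17b7 at -0.10, Fasn at -0.29, Scd1 at -0.49 and Fads1 at -0.17. With 1 mouse left out, log2 fold changes ran from -0.06 to 0.57 for Fdps, -0.31 to 0.27 for Sc4mol, -0.41 to 0.10 for Nsdhl, -0.12 to 0.17 for Hsd17b7, -0.01 to 0.38 for Srebf1, -0.04 to 0.23 for Srebf2, -0.45 to 0.00 for Stard4, -0.11 to 0.05 for Acly, -0.21 to 0.14 for Fads1 and -0.29 to 0.05 for Fads2. The cause of these moves was not tested.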
